A study of Mus musculus with 12 samples.

Results

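The 41 genes described here encode liver enzymes, and 1 enzyme regulator, that break down amino acids. They were picked by gene symbol, and all 41 were found among the 20719 genes tested; each was read from 1 line of the array table, the line with the highest mean over the 12 arrays where a symbol had several. By the amino acid degraded they fall into phenylalanine and tyrosine (4 genes), tryptophan (4), the branched-chain amino acids (12), histidine (3), the sulfur amino acids (6), glycine with dimethylglycine and sarcosine (4), serine and threonine (2), proline with hydroxyproline and ornithine (4) and lysine (2). The study hybridised whole-liver RNA to 12 arrays, 1 mouse each and 3 mice a group. The groups were knock-out (KO) mice kept without food but with water for 24 h, wild-type (WT) mice starved for 24 h, KO mice fed standard chow and WT mice fed standard chow. KO mice came from C57BL/6 Albumin-Cre mice crossed with mice whose lamp2 exon 9A lies between loxP sites. That exon is specific to LAMP2A, the lysosomal receptor of chaperone-mediated autophagy, and the labels call the KO mice deficient in that pathway. The albumin promoter drives Cre in hepatocytes, and which cells of the liver kept the exon was not tested. The labels do not say whether the WT mice carried Cre or loxP sites, nor the age of the mice.

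The liver takes up amino acids from the portal blood and degrades most of them, apart from the branched-chain ones, whose first transamination takes place mainly in muscle. Nitrogen goes to urea and the carbon skeletons to glucose or ketone bodies. During fasting glucagon and glucocorticoids are known to raise several of the enzymes concerned, tyrosine aminotransferase and serine dehydratase being textbook examples.

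The values are log2 expression values. Each gene's probe set has its own affinity, so levels are compared between arrays and never between genes. The tissue label was checked on 8 hepatocyte markers, whose means over 12 arrays lay between 11.95 for Hnf4a and 14.24 for Alb; none of them passed the test for starvation. Lamp2 itself lay between 12.24 and 12.81 on the 12 arrays, and the KO minus WT difference was -0.07 in starved and 0.24 in fed livers (limma, adjusted p 1 in both). The table holds 1 value for the gene and none for the exon, so it does not check the deletion. In bulk liver fewer cells of a type and less RNA per cell cannot be told apart.

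The 12 arrays were split at the median of their spread into 2 kinds, which the labels do not name. The standard deviation of all gene values within an array was 2.13 to 2.15 on 6 arrays, called wide here, and 1.996 to 2.08 on the other 6, called narrow. The wide arrays were KO starved S6 and S7, WT starved S3 and S4, KO fed F6 and WT fed F1, so that starved groups of both genotypes held 2 wide arrays and 1 narrow array and fed groups 1 wide array and 2 narrow arrays. Most of the enzymes were higher on wide than on narrow arrays of the same group: 32 of 41 in KO starved, 36 in WT starved, 30 in KO fed and 34 in WT fed livers. For 26 of the 41 (63.4%) this held in all 4 groups, against 24.0% of all genes. Among the 2072 genes in the top 10% by mean signal, which hold 34 of the enzymes, it was 44.4%; signal depends on the probe set as well as on the RNA. Results are therefore given with the array spread beside them, and what makes arrays wide or narrow was not tested. The kinds are not uniform: on the narrow array WT fed F4 31 of 41 enzymes lay above the mean of their group.

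The starvation response averaged over both genotypes is given first, because it rests on 6 arrays against 6. Of the 41 enzymes 7 rose and 1 fell on starvation (limma, adjusted p under 0.05), and 33 had a difference above 0. Over all genes 5.16% passed the same test, 2.32% upward and 2.84% downward, and 45% of differences were above 0. The median difference of the enzymes was 0.20 on the log2 scale, against -0.02 for all genes. Both depended on array spread: 29 of 41 differences lay above 0 with a median of 0.10 with spread as a block in the fit, 23 with a median of 0.05 on the 6 wide arrays alone, and 30 with a median of 0.12 on the 6 narrow arrays alone. The 7 that rose were Aass, Oat, Mat1a, Sdsl, Ahcy, Hibch and Bhmt, and the 1 that fell was Haao. At an unadjusted p under 0.05 there were 18 enzymes (43.9%), against 17.7% of all genes. The 6 starved arrays lay wholly above or wholly below the 6 fed arrays for 6 enzymes (14.6%), against 3.87% of all genes.

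**Figure D1:**
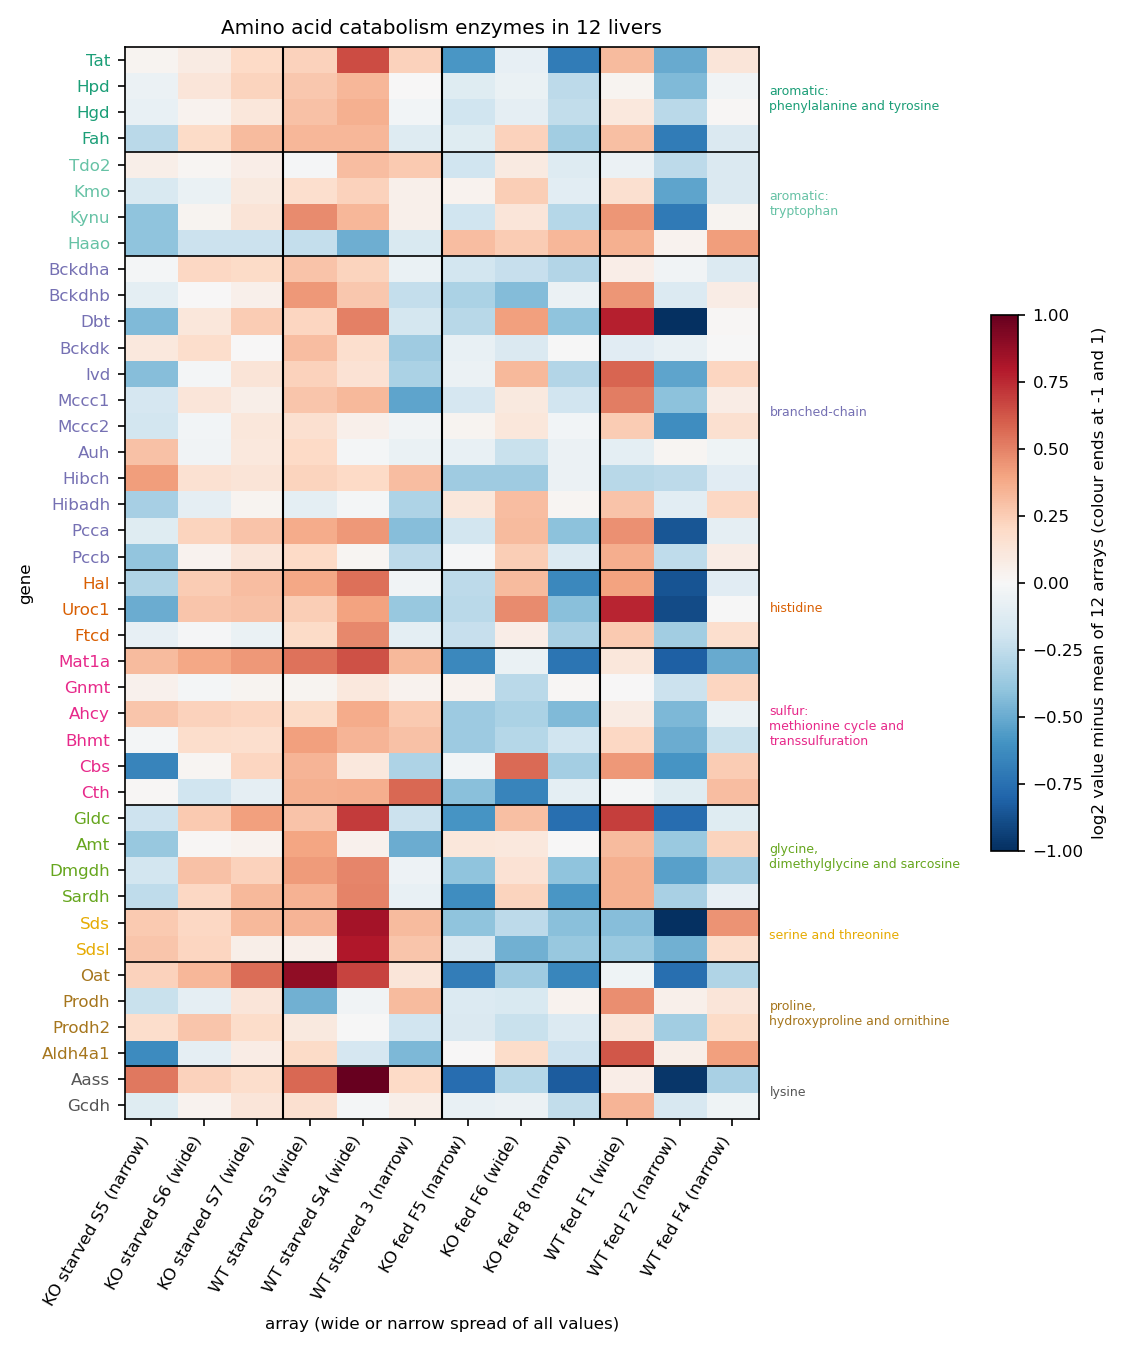
Each row is 1 of the 41 enzymes, its name coloured by the amino acid it degrades, and each column 1 liver; the colour is the log2 value minus the gene's mean over 12 arrays, and the array kind stands in brackets. Haao runs opposite to Oat, Mat1a and Ahcy, and the narrow WT fed array F2 is low for most rows, with 1 of 41 enzymes above its group mean.

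**Figure D2:**
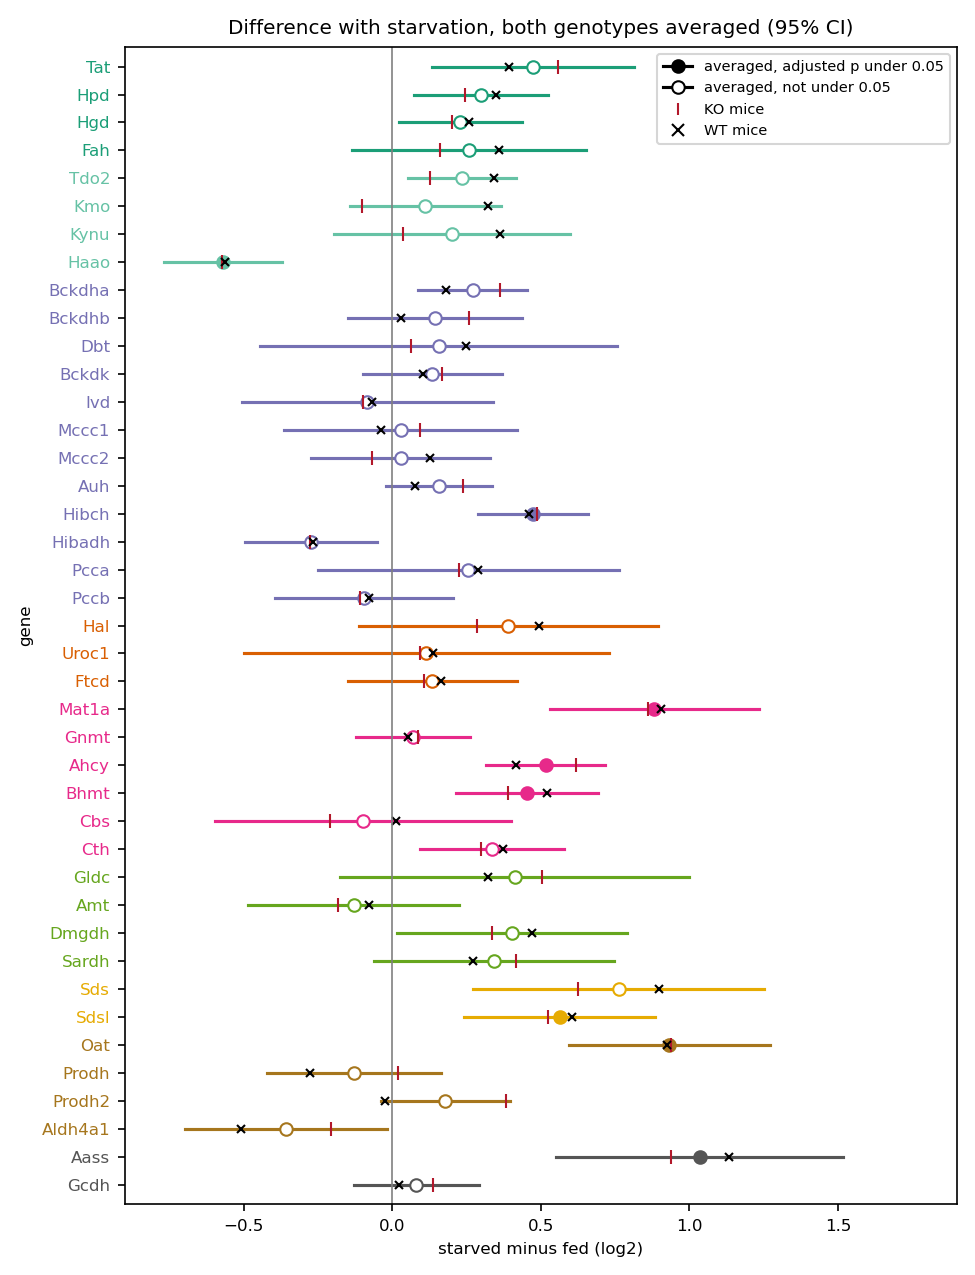
The log2 difference of starved minus fed livers averaged over genotypes (circles) with its 95% confidence interval (bars), and the differences within KO (red ticks) and WT (crosses), for 41 enzymes ordered by amino acid. The 8 filled circles had an adjusted p under 0.05, and 33 of the 41 circles lie right of 0.

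Promoter sequences are shown for Haao and Oat, the enzymes with the smallest adjusted p for a fall and for a rise. Both are 300 bases around the gene's start from RefSeq on GRCm38.p6, 5′ to 3′ along the gene; Haao is chr17:83846741-83847040 and Oat chr7:132576349-132576648, both on the minus strand. Capitals mark a match to 1 of 4 motifs searched on both strands.
Haao: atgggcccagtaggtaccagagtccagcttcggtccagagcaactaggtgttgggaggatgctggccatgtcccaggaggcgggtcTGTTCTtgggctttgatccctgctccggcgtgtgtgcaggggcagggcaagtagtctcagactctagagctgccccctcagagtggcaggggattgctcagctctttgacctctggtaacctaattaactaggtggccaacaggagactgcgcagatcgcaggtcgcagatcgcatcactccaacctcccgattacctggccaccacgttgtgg
Oat: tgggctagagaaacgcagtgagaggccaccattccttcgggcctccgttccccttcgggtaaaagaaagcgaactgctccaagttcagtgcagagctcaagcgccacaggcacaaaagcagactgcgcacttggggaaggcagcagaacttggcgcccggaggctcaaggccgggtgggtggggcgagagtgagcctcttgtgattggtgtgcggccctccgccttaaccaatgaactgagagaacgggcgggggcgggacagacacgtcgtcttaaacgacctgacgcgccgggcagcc
The motifs were the cAMP response core TGACGT, the glucocorticoid half-site TGTTCT, the FOXO/FOXA core TGTTTAC and the looser C/EBP pattern TTGCNNAA. Haao had 1 match, TGTTCT at bases 87 to 92, and Oat had 0. Of all 32851 promoter windows of this length 7.51% held TGACGT, 19.0% TGTTCT, 3.65% TGTTTAC and 10.8% TTGCNNAA. The 37 windows of the 35 enzymes in the table held them in 1, 5, 2 and 5 windows, in the same order. A match is a run of letters and shows no binding.

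The phenylalanine and tyrosine enzymes all had positive differences, between 0.23 and 0.47, and none passed the test (0 of 4). Tat, tyrosine aminotransferase, which takes the first step of tyrosine breakdown, had 13.30, 13.35 and 13.47 in KO starved and 13.50, 13.92 and 13.50 in WT starved livers. Tat had 12.69, 13.19 and 12.57 in KO fed and 13.59, 12.77 and 13.39 in WT fed livers. In KO mice the starved livers lay above the fed ones, while in WT mice fed F1 reached into the starved range. The averaged difference was 0.47 ± 0.15 (SE, limma, adjusted p 0.12). Tat was 0.35 higher on wide arrays, and its starved minus fed difference was 0.13 to 0.67 within each kind of array and genotype. With 1 array left out in turn, Tat passed in 1 of 12 fits, the one without KO fed F6. The adjusted p in these limma fits lay between 0.049 and 0.27. Hpd, hydroxyphenylpyruvate dioxygenase, differed by 0.30 ± 0.10 (adjusted p 0.14), and Hgd, homogentisate dioxygenase, by 0.23 ± 0.09 (adjusted p 0.23). Both had starved livers above fed livers throughout in KO mice and overlapping ones in WT mice. Fah, fumarylacetoacetate hydrolase, which takes the last step, differed by 0.26 ± 0.18 (adjusted p 0.52) and was 0.54 higher on wide than on narrow arrays, a larger difference than the one between starved and fed livers.

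Among the tryptophan enzymes, the one that fell was Haao, hydroxyanthranilate dioxygenase, which makes the precursor of quinolinate and of NAD. It had 11.57, 11.75 and 11.75 in KO starved and 11.73, 11.48 and 11.82 in WT starved livers. Haao had 12.27, 12.22 and 12.30 in KO fed and 12.32, 12.00 and 12.39 in WT fed livers. Every starved liver lay below every fed one. The averaged difference was -0.57 ± 0.09 (SE; 0.674-fold, adjusted p 0.0044), and the differences within genotypes were nearly equal, -0.57 in KO and -0.56 in WT mice. Wide and narrow arrays differed by 0.01 on average, and starved minus fed was below 0 within wide and within narrow arrays of both genotypes, from -0.72 to -0.38.

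None of the enzymes upstream of Haao passed the test. Tdo2, tryptophan dioxygenase, which opens the pathway, differed by 0.24 ± 0.08 (adjusted p 0.15). Kmo, kynurenine monooxygenase, differed by 0.11 ± 0.12, and Kynu, kynureninase, by 0.20 ± 0.18. Kynu was 0.49 higher on wide arrays, and within each kind of array and genotype its starved minus fed difference was below 0 in 3 of 4 comparisons (-0.16 to 0.39); that of Kmo was below 0 on both kinds of array in KO mice (-0.23 and -0.12) and above 0 in WT mice (0.04 and 0.39). Kmo had the interaction furthest from 0 of the 41 enzymes, the KO response minus the WT response being -0.43 ± 0.23 (adjusted p 1.00), with responses of -0.10 in KO and 0.32 in WT mice. Its KO starved livers had 12.09, 12.17 and 12.33 and its WT starved livers 12.41, 12.47 and 12.29. The KO fed livers had 12.27, 12.48 and 12.13 and the WT fed livers 12.40, 11.71 and 12.09, so that both pairs of starved and fed groups overlapped.

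Of the 12 branched-chain genes 1 rose and none fell, 5.16% of all genes having passed the same test. Hibch, hydroxyisobutyryl-CoA hydrolase of valine breakdown, had 10.35, 10.08 and 10.07 in KO starved and 10.15, 10.13 and 10.24 in WT starved livers. Hibch had 9.58, 9.58 and 9.87 in KO fed and 9.65, 9.67 and 9.82 in WT fed livers. Starved and fed livers did not overlap, and the averaged difference was 0.47 ± 0.08 (1.39-fold, adjusted p 0.0080). Hibch was lower on wide than on narrow arrays in all 4 groups, by 0.15 on average, and its starved minus fed difference lay between 0.49 and 0.62 within each kind of array and genotype. Hibadh, hydroxyisobutyrate dehydrogenase, takes the step after Hibch and went the other way by value, -0.27 ± 0.10 (adjusted p 0.17). Its starved livers had 12.33, 12.57 and 12.68 in KO and 12.56, 12.64 and 12.35 in WT mice. Hibadh had 12.77, 12.96 and 12.68 in KO fed and 12.94, 12.55 and 12.86 in WT fed livers, and the groups overlapped. Within wide and within narrow arrays of both genotypes the Hibadh difference was nearly constant, from -0.40 to -0.34.

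The branched-chain ketoacid dehydrogenase complex, which commits all 3 branched-chain amino acids to breakdown, showed small differences. Its subunits Bckdha, Bckdhb and Dbt differed by 0.27 ± 0.08 (adjusted p 0.097), 0.14 ± 0.13 and 0.16 ± 0.27, and Bckdk, the kinase that inhibits the complex, by 0.14 ± 0.11. The KO starved livers lay above the KO fed ones for Bckdha and Bckdk. Dbt ranged from 9.68 in WT fed F2 to 11.45 in WT fed F1, the narrow and the wide extremes of 1 group, and was 0.79 higher on wide arrays. The leucine enzymes Ivd (isovaleryl-CoA dehydrogenase), Mccc1 and Mccc2 (methylcrotonyl-CoA carboxylase) and Auh (methylglutaconyl-CoA hydratase) differed by -0.08, 0.03, 0.03 and 0.16. Pcca and Pccb, the 2 subunits of propionyl-CoA carboxylase, differed by 0.26 ± 0.23 and -0.09 ± 0.14. None of these genes passed the test. Pcca, Ivd and Mccc1 were higher on wide than on narrow arrays in all 4 groups, by 0.69, 0.56 and 0.51 on average, each more than the starved minus fed difference.

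The 3 histidine enzymes act on the same route, and none passed the test. Hal, histidine ammonia-lyase, differed by 0.39 ± 0.23 (adjusted p 0.43), Uroc1, urocanate hydratase, by 0.12 ± 0.28 (adjusted p 0.89) and Ftcd, formimidoyltransferase cyclodeaminase, by 0.14 ± 0.13 (adjusted p 0.67). Uroc1 had the largest difference between wide and narrow arrays of the 41 enzymes, 0.88 on average, and Hal had 0.69. Uroc1 had 9.51, 10.27 and 10.29 in KO starved and 10.25, 10.40 and 9.62 in WT starved livers. Uroc1 had 9.73, 10.47 and 9.58 in KO fed and 10.76, 9.10 and 9.996 in WT fed livers. The highest value in each group came from a wide array and the lowest from a narrow one.

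The sulfur amino acid enzymes gave the most calls, 3 of 6 against 5.16% of all genes, all upward and all in the methionine cycle. Of the smaller groups, lysine and serine with threonine each gave 1 of 2. Mat1a, which makes S-adenosylmethionine from methionine, had 13.79, 13.86 and 13.90 in KO starved and 14.02, 14.11 and 13.80 in WT starved livers. Mat1a had 12.83, 13.41 and 12.74 in KO fed and 13.59, 12.65 and 12.97 in WT fed livers. Starved livers were all above fed livers, by 0.88 ± 0.16 (1.84-fold, adjusted p 0.0092). The fed values spread more (SD 0.38, n = 6) than the starved ones (SD 0.13, n = 6), the wide fed arrays F6 and F1 being the highest of the fed livers. The starved minus fed difference was correspondingly 0.48 in KO and 0.47 in WT livers on wide arrays and 1.00 in KO and 0.99 in WT livers on narrow arrays.

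Ahcy, adenosylhomocysteine hydrolase, which removes the by-product of methylation, had 13.61, 13.56 and 13.54 in KO starved and 13.52, 13.70 and 13.59 in WT starved livers. Ahcy had 12.96, 13.01 and 12.88 in KO fed and 13.41, 12.88 and 13.26 in WT fed livers. The groups did not overlap, and the averaged difference was 0.52 ± 0.09 (1.43-fold, adjusted p 0.0081). Within each kind of array and genotype Ahcy differed by 0.19 to 0.68, least in WT livers on wide arrays. The 3 table lines of Ahcy gave 0.52, 0.53 and 0.53; they share 1 accession, and cross-hybridisation with copies of the gene was not tested.

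Bhmt, betaine-homocysteine methyltransferase, which returns homocysteine to methionine, had 13.49, 13.69 and 13.67 in KO starved and 13.92, 13.85 and 13.81 in WT starved livers. Bhmt had 13.14, 13.23 and 13.31 in KO fed and 13.72, 13.01 and 13.29 in WT fed livers. Starved livers lay above fed livers within each genotype, but WT fed F1 lay above all KO starved livers. The averaged difference was 0.45 ± 0.11 (1.37-fold, adjusted p 0.035). Bhmt was 0.21 higher on wide arrays, and within each kind of array and genotype it differed by 0.17 to 0.66. With 1 array left out in turn the call was kept without WT fed F1, WT starved 3 or KO starved S5 and lost without any of the other 9, with adjusted p between 0.0045 and 0.098. A second line of Bhmt at a similar level gave 0.44, and the third, much dimmer one 0.27. All lines of Bhmt share 1 accession, and cross-hybridisation with copies of the gene was not tested.

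The other 3 sulfur enzymes did not pass. Gnmt, glycine N-methyltransferase, which uses up surplus S-adenosylmethionine, differed by 0.07 ± 0.09 (adjusted p 0.75). The transsulfuration enzymes Cbs, cystathionine beta-synthase, and Cth, cystathionine gamma-lyase, differed by -0.10 ± 0.23 and 0.34 ± 0.11 (adjusted p 0.88 and 0.12). Cbs was 0.66 higher on wide arrays and Cth 0.22 lower, and within each kind of array and genotype Cbs lay below 0 (-0.48 to -0.14) and Cth above 0 (0.27 to 0.52).

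**Figure D3:**
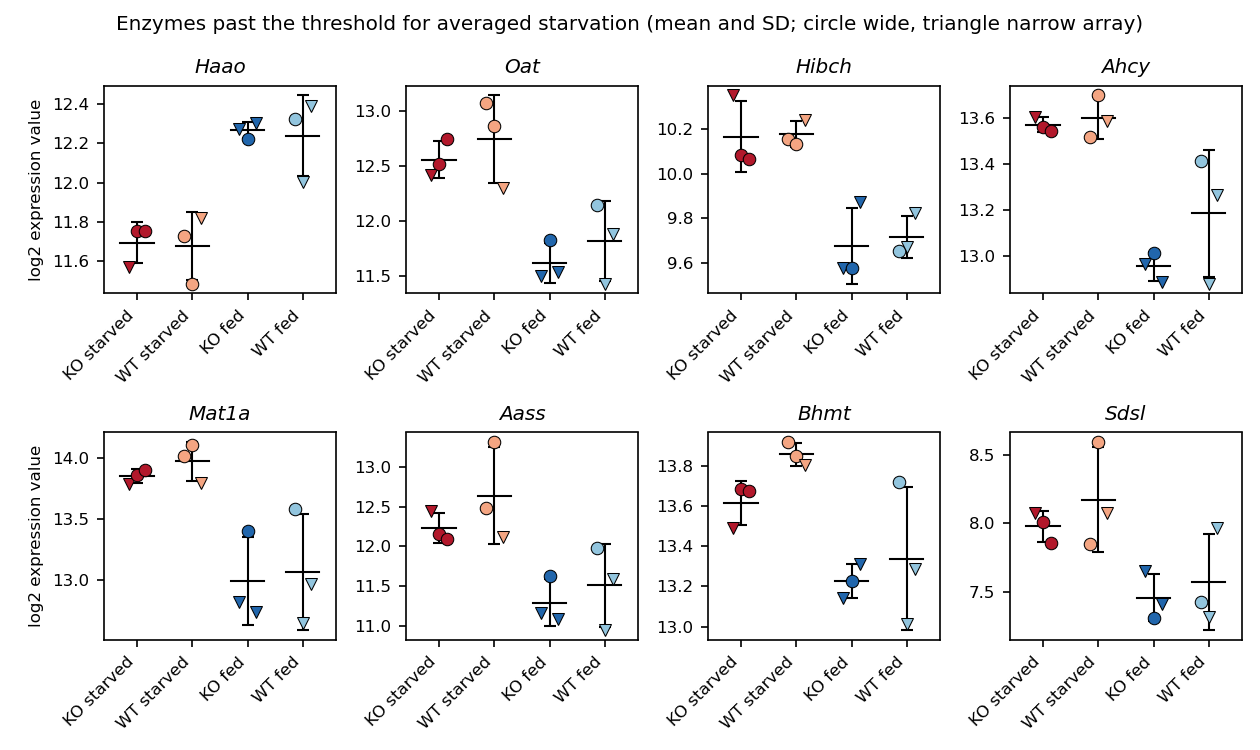
Log2 values of the 8 enzymes past the threshold for starvation, in KO starved, WT starved, KO fed and WT fed livers; points are livers (circles wide, triangles narrow arrays), bars the mean and SD of 3. Haao is the 1 panel in which starved livers lie below fed livers; in Bhmt and Sdsl a fed liver reaches the starved range.

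Of the glycine group none passed the test. Gldc and Amt belong to the glycine cleavage system and differed by 0.41 ± 0.27 and -0.13 ± 0.16. Dmgdh and Sardh, which demethylate dimethylglycine and sarcosine, differed by 0.40 ± 0.18 (adjusted p 0.26) and 0.34 ± 0.18 (adjusted p 0.38). All 4 were higher on wide arrays in every group, by 0.84, 0.38, 0.58 and 0.60. Within wide and within narrow arrays Amt lay below 0 in both genotypes (-0.44 to -0.08), and Dmgdh (0.11 to 0.40) and Sardh (0.04 to 0.34) lay above 0.

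The 2 serine and threonine dehydratases gave 1 call, 5.16% of all genes having passed the same test. Sdsl, serine dehydratase-like, had 8.07, 8.01 and 7.85 in KO starved and 7.85, 8.59 and 8.07 in WT starved livers. Sdsl had 7.65, 7.31 and 7.41 in KO fed and 7.42, 7.31 and 7.97 in WT fed livers. WT fed F4 reached into the starved range, and the averaged difference was 0.56 ± 0.15 (1.48-fold, adjusted p 0.0497). Within each kind of array and genotype Sdsl differed by 0.43 to 0.80. With 1 array left out in turn the call was kept without WT fed F4 or WT starved S3 and lost without any of the other 10, with adjusted p between 0.025 and 0.12.

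Sds, serine dehydratase, had a larger difference than Sdsl, 0.76 ± 0.22, and did not pass (adjusted p 0.080). It had 11.39, 11.33 and 11.45 in KO starved and 11.47, 11.96 and 11.45 in WT starved livers. Sds had 10.73, 10.87 and 10.71 in KO fed and 10.70, 9.90 and 11.58 in WT fed livers. The WT fed values spread by an SD of 0.84 (n = 3), against 0.09 in KO fed livers, with F4 lying among the starved livers. Within each kind of array and genotype Sds differed by 0.53 to 1.02. Without WT fed F4 the averaged difference was 0.97 ± 0.15 (limma, adjusted p 0.0072). This was the 1 of 12 fits without 1 array in which Sds passed, and the adjusted p in the others reached 0.20.

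Oat, ornithine aminotransferase, links proline, ornithine and glutamate. It had 12.41, 12.52 and 12.74 in KO starved and 13.07, 12.86 and 12.30 in WT starved livers. Oat had 11.50, 11.83 and 11.53 in KO fed and 12.15, 11.43 and 11.89 in WT fed livers. Every starved liver lay above every fed one, and the averaged difference was 0.93 ± 0.15 (1.91-fold, adjusted p 0.0054), with 0.94 in KO and 0.92 in WT mice. Oat was 0.42 higher on wide arrays, and its starved minus fed difference held at 0.65 to 0.90 within each kind of array and genotype.

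None of the proline enzymes passed the test. Prodh, proline dehydrogenase, differed by -0.13 ± 0.13 and Prodh2, hydroxyproline dehydrogenase, by 0.18 ± 0.10. In KO mice Prodh2 was higher in every starved than in every fed liver (0.38 ± 0.14, unadjusted p 0.019, adjusted p 0.35). Aldh4a1, the dehydrogenase that receives the product of both, differed by -0.36 ± 0.16 (adjusted p 0.26). Aldh4a1 had 9.57, 10.12 and 10.27 in KO starved and 10.39, 10.04 and 9.75 in WT starved livers. Aldh4a1 had 10.21, 10.38 and 9.996 in KO fed and 10.83, 10.26 and 10.61 in WT fed livers. The groups overlapped, with a wide array highest in all 4 groups, and within each kind of array and genotype the difference lay below 0 (-0.69 to -0.19).

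Lysine breakdown starts with Aass, aminoadipate-semialdehyde synthase, which had the largest difference of the 41 enzymes. It had 12.44, 12.15 and 12.09 in KO starved and 12.49, 13.31 and 12.12 in WT starved livers. Aass had 11.16, 11.63 and 11.08 in KO fed and 11.98, 10.94 and 11.59 in WT fed livers. Every starved liver lay above every fed one, and the averaged difference was 1.03 ± 0.22 (2.05-fold, adjusted p 0.020). Aass was 0.42 higher on wide arrays, and its starved minus fed difference ranged from 0.49 to 1.32 within each kind of array and genotype. The call was lost without KO fed F5 (adjusted p 0.059) or KO fed F8 (adjusted p 0.052). Gcdh, glutaryl-CoA dehydrogenase, which acts further down the same route, differed by 0.08 ± 0.10 (adjusted p 0.74).

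Within single genotypes, with 3 arrays against 3, no enzyme passed the test in KO mice (0 of 41, against 1.02% of all genes) or in WT mice (0 of 41, against 1.41%). At limma's unadjusted p under 0.05 there were 11 enzymes in KO mice (26.8%, against 9.32% of all genes) and 13 in WT mice (31.7%, against 12.7%). Starved and fed arrays did not overlap for 16 enzymes in KO mice (39.0%, against 16.5% of all genes) and for 9 in WT mice (22.0%, against 13.0%). The smallest adjusted p was 0.051 for Ahcy in KO mice and 0.058 for Haao in WT mice. The median difference of the enzymes was 0.20 in KO and 0.26 in WT mice, and 32 of 41 lay above 0 in each. Across the 41 genes the KO and WT differences had a Pearson r of 0.86, given as a description: the genes are not independent, and both contrasts set 2 wide arrays and 1 narrow array against 1 wide array and 2 narrow arrays.

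**Figure D4:**
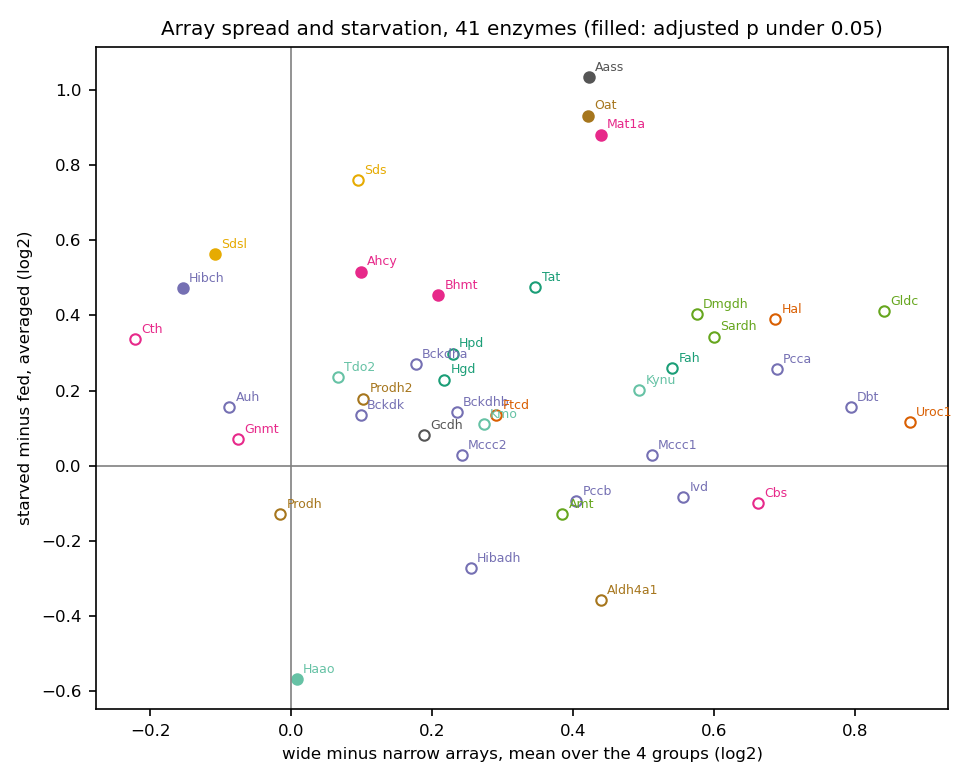
Each point is 1 of the 41 enzymes; the horizontal axis is its mean log2 difference of wide minus narrow arrays over the 4 groups and the vertical axis its averaged log2 difference of starved minus fed livers, with filled points past the threshold. Uroc1 (0.88) and Dbt (0.79) lie far right with starvation differences of 0.12 and 0.16, Aass, Oat and Mat1a lie high at about 0.42 to 0.44, and Haao lies low near 0 on the horizontal axis.

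With array spread as a block in the fit, 11 enzymes passed for averaged starvation, 8 upward and 3 downward, while 10.8% of all genes did. The 8 genes called without the block were all among them, and the added ones were Hibadh (-0.36 ± 0.07, adjusted p 0.0070), Aldh4a1 (-0.50 ± 0.10, adjusted p 0.0047) and Cth (0.41 ± 0.09, adjusted p 0.013). Within genotypes the block gave 5 enzymes in KO mice (4.25% of all genes) and 6 in WT mice (5.91% of all genes). Haao, Hibch, Mat1a and Oat passed in both, Ahcy passed in KO mice, and Aldh4a1 and Aass passed in WT mice. The median difference of the 41 enzymes was smaller with the block, 0.11 in KO and 0.08 in WT mice, and 0.10 averaged. The block was chosen after an earlier look at these data.

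KO and WT livers were then compared at each feeding state, the contrast that asks whether loss of the lysosomal receptor went with other levels of these enzymes. No enzyme passed the test in starved livers (0 of 41, and 0% of all genes) or in fed livers (0 of 41, and 0%). At limma's unadjusted p under 0.05 there was 1 enzyme in each, Cth in both, against 3.59% of all genes in starved and 2.91% in fed livers. The averaged genotype contrast called 0 of 41 (0% of all genes), with 2 enzymes, Cth and Tat, at an unadjusted p under 0.05 against 4.65% of all genes. The difference between the KO and the WT response to starvation called 0 of 41 (0% of all genes), and 0 enzymes had an unadjusted p under 0.05, against 2.04% of all genes. The median half-width of the 95% interval was 0.30 for an averaged difference, 0.43 for a difference of 2 groups and 0.60 for the difference between responses. These intervals are not adjusted for the number of genes, and larger differences also missed the adjusted threshold.

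By sign, KO livers were mostly lower: 33 of 41 averaged genotype differences lay below 0, so that 19.5% lay above 0, against 42.2% of all genes. The median was -0.11, against -0.02 over all genes. On the 6 wide arrays alone 4 of 41 lay above 0 with a median of -0.17, and on the 6 narrow arrays alone 12 of 41 with a median of -0.05. The largest was that of Cth, which makes cysteine from cystathionine. Cth had 12.68, 12.47 and 12.58 in KO starved livers, against 13.03, 13.04 and 13.25 in WT starved livers. It had 12.25, 12.01 and 12.58 in KO fed livers, against 12.65, 12.55 and 12.98 in WT fed livers. The starved groups did not overlap and the fed ones did, KO fed F8 lying just above WT fed F2. KO and WT arrays did not overlap for 4 of 41 enzymes in starved livers (9.76%, against 9.81% of all genes). In fed livers they did not overlap for 2 of 41 (4.88%, against 7.97% of all genes). The averaged difference was -0.49 ± 0.11 (0.713-fold, unadjusted p 0.00099, adjusted p 1.00 over all genes in limma), and the responses to starvation were 0.30 in KO and 0.37 in WT mice, with a difference of -0.08 ± 0.22. Array weights downweight variable arrays. With them Cth (-0.59 ± 0.07, adjusted p 0.0074) and Tat (-0.48 ± 0.09, adjusted p 0.048) passed for averaged genotype in limma, among 170 of all 20719 genes that did. In each fed group these weights rested mostly on 1 array. KO fed F5 had 6.14, against 0.36 for F6 and 0.64 for F8. WT fed F4 had 4.01, against 0.36 for F1 and 0.42 for F2.

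The next averaged differences in size were those of Tat (-0.35 ± 0.15), Aass (-0.31 ± 0.22), Bckdhb (-0.28 ± 0.13) and Sardh (-0.24 ± 0.18), each with an adjusted p of 1.00. Tat was lower in every KO starved than in every WT starved liver, and the fed groups overlapped. KO and WT arrays stood apart for 9.81% of all genes in starved livers. Bckdhb had 11.34, 11.44 and 11.49 in KO starved livers, against 11.87, 11.703 and 11.19 in WT starved livers. Its fed livers had 11.12, 11.00 and 11.37 in KO mice, against 11.87, 11.30 and 11.51 in WT mice. The highest values came from the wide WT arrays S3 and F1, and both pairs of groups overlapped. Sardh had 11.21, 11.68 and 11.79 in KO starved livers, against 11.82, 11.97 and 11.40 in WT starved livers. Its fed livers had 10.85, 11.69 and 10.89 in KO mice, against 11.83, 11.15 and 11.39 in WT mice, and again both pairs overlapped. On narrow arrays alone the Aass difference was 0.09 ± 0.18, the opposite sign. After Kmo, the largest differences between the responses of KO and WT mice were those of Prodh2 (0.41 ± 0.20), Kynu (-0.33 ± 0.36), Aldh4a1 (0.30 ± 0.31) and Prodh (0.30 ± 0.27), none past the test. Prodh2 had 10.11, 10.22 and 10.12 in KO starved livers, against 10.03, 9.93 and 9.74 in WT starved livers. It had 9.79, 9.71 and 9.80 in KO fed livers, against 10.06, 9.59 and 10.13 in WT fed livers, so that the starved groups did not overlap and the fed ones did. Kynu had 11.83, 12.27 and 12.37 in KO starved livers, against 12.71, 12.57 and 12.29 in WT starved livers. It had 12.04, 12.36 and 11.95 in KO fed livers, against 12.68, 11.53 and 12.26 in WT fed livers, and both pairs overlapped. Prodh had 9.71, 9.83 and 10.05 in KO starved livers, against 9.45, 9.89 and 10.24 in WT starved livers. It had 9.79, 9.78 and 9.97 in KO fed livers, against 10.39, 9.98 and 10.05 in WT fed livers. The fed KO livers lay below all fed WT livers, narrowly, and the starved groups overlapped. In fed livers KO and WT arrays stood apart for 7.97% of all genes. On narrow arrays alone the Prodh interaction was -0.40, the opposite sign.

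**Figure D5:**
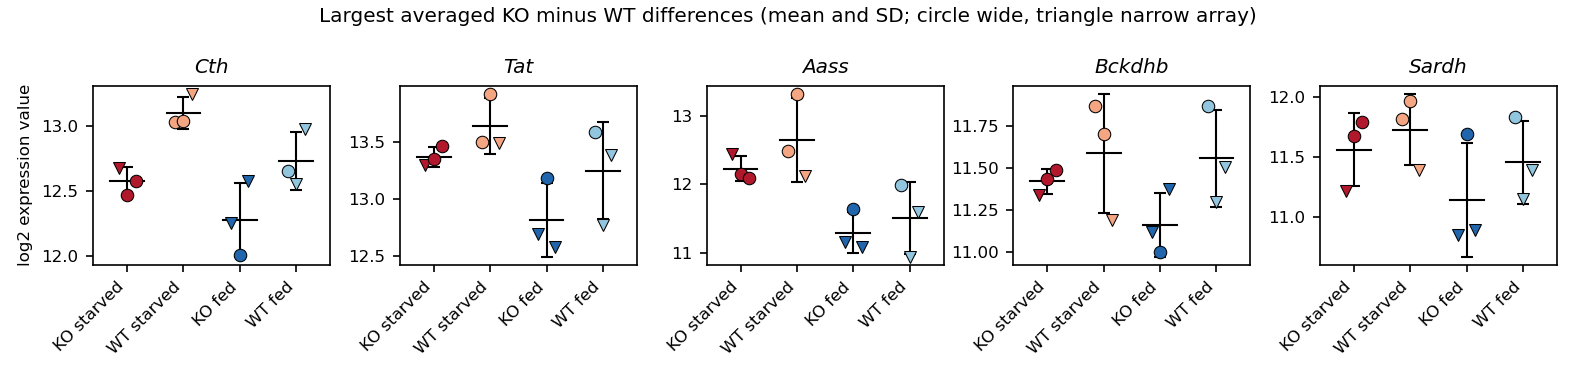
Log2 values of the 5 enzymes with the largest averaged KO minus WT differences, in KO starved, WT starved, KO fed and WT fed livers; points are livers (circles wide, triangles narrow arrays), bars the mean and SD of 3. In Cth the 3 KO starved livers lie below the 3 WT starved livers, and the fed groups overlap. KO and WT arrays stood apart for 9.81% of all genes in starved livers.

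A further 65 enzymes of amino acid metabolism, listed by pathway and all measured, gave 4 rises and 5 falls for averaged starvation. Of all genes 5.16% passed the same test. The median difference of the 65 enzymes was 0.04. Hsd17b10, a dehydrogenase of isoleucine breakdown, had 12.84, 12.76 and 12.77 in KO starved and 12.84, 13.06 and 12.91 in WT starved livers. Hsd17b10 had 11.86, 11.67 and 11.89 in KO fed and 12.14, 11.80 and 11.95 in WT fed livers. The groups stood clearly apart (0.98 ± 0.08, 1.97-fold, adjusted p 9.2e-05), and Hsd17b10 also passed in KO mice alone and in WT mice alone. Got1, cytosolic aspartate aminotransferase (1.40 ± 0.24, adjusted p 0.0074), and Aadat, which acts on aminoadipate and kynurenine (0.75 ± 0.16, adjusted p 0.020), rose too.

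The 5 that fell include steps of sulfide, threonine and aromatic metabolism. Ethe1, the persulfide dioxygenase of mitochondrial sulfide oxidation, had 9.44, 9.22 and 9.27 in KO starved and 9.10, 9.07 and 9.94 in WT starved livers. Ethe1 had 11.01, 10.99 and 11.11 in KO fed and 10.41, 10.45 and 10.82 in WT fed livers. Every starved liver lay below every fed one (-1.46 ± 0.15, 0.364-fold, adjusted p 0.00032). Gcat, glycine C-acetyltransferase of threonine breakdown (-1.15 ± 0.18, adjusted p 0.0041), Ccbl1, a kynurenine aminotransferase (-0.75 ± 0.16, adjusted p 0.020), Ddc, aromatic amino acid decarboxylase (-0.63 ± 0.13, adjusted p 0.015), and Qdpr, which recycles the cofactor of phenylalanine hydroxylase (-0.58 ± 0.08, adjusted p 0.0021), fell as well. Ethe1 and Qdpr also passed in KO mice alone and in WT mice alone, and Gcat in WT mice alone.

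Of 15 regulators of these enzymes 14 were measured, and 3 rose and 1 fell, 5.16% of all genes having passed the same test. Ppargc1a, a coactivator of fasting genes, rose by 1.84 ± 0.30 (adjusted p 0.0049), Creb3l3, a liver transcription factor of the CREB family, by 0.49 ± 0.13 (adjusted p 0.047) and Gcgr, the glucagon receptor, by 0.34 ± 0.09 (adjusted p 0.040). Foxa2, a forkhead factor of the liver, fell by 0.39 ± 0.10 on the log2 scale (adjusted p 0.047). The glucocorticoid receptor Nr3c1 differed by -0.11 ± 0.18 and Klf15, a factor that drives amino acid catabolism genes in mouse liver, by 0.11 ± 0.09. Neither passed. Klf15 had 9.69, 9.86 and 9.97 in KO starved and 9.48, 9.45 and 9.63 in KO fed livers, without overlap, as 16.5% of all genes had none. It had 9.81, 9.665 and 9.93 in WT starved and 9.75, 9.84 and 10.09 in WT fed livers, which overlapped.

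Markers of where hepatocytes lie in the lobule were counted beside the enzymes, 5.16% of all genes having passed the same test. Of 10 periportal genes 2 rose and none fell on starvation, Arg1 (0.37) and Hsd17b13 (0.54). By sign 6 of the 10 lay above 0 and 4 below, Pck1 highest (1.33, limma adjusted p 0.0501) and Aldh1b1 lowest (-0.31). Of 12 pericentral genes none rose and 3 fell, Rgn (-1.55), Cyp1a2 (-1.33) and Cyp2c29 (-0.69). By sign 7 of the 12 lay below 0 and 5 above, Slc1a2 (0.60) and Tbx3 (0.49) highest, so neither list moved in 1 direction throughout. The summed pericentral level, in log2, was 15.17 to 15.56 in KO starved, 15.16 to 15.47 in WT starved, 15.66 to 15.94 in KO fed and 15.45 to 15.94 in WT fed livers, and the summed periportal level was 16.09 to 16.35, 16.15 to 16.48, 15.87 to 16.30 and 15.74 to 16.31 in the same order. The pericentral range of starved livers lay below that of fed livers in KO mice and overlapped it narrowly in WT mice. The periportal ranges of starved and fed livers overlapped in both genotypes. Of the non-hepatocyte lists, endothelial and stellate markers gave 1 fall each (Fcgr2b and Pdgfrb), red cell markers 2 (Alas2 and Car1), and Kupffer cell, cholangiocyte and lymphocyte markers none. The part of these markers in the enzyme differences was not tested.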

How the data were processed

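Liver RNA of 12 mice was labelled with an Affymetrix whole-transcript kit, per the labels' protocols. The authors deposited 1 log2 value per line and array; RMA, oligo and limma are named in the submitters' processing notes. RMA puts arrays on a common scale, so a difference is relative to the other genes. For array model, annotation, build and versions the sources used here give nothing. Both deposited tables held identical values (347328 cells). Of 28944 lines 5132 had no symbol and were left out, leaving 20719 genes at 1 line a symbol. All 41 accessions were found in a RefSeq gene table.

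Tests used limma 3.58.1 in R 4.3.3 (lmFit, eBayes, 4 group means in 1 model, 7 contrasts) with Benjamini-Hochberg adjustment over 20719 genes and a threshold of 0.05. Precision is set by the 3 arrays a group, and the median residual SD was 0.186. The procedure was also run on simulated arrays with independent noise per gene. Those had no wide and narrow kinds, so that run does not cover array spread. The enzymes and all lists were chosen with earlier results of these data known. Values on every array were printed for enzymes past the threshold in any contrast, for the 10 largest averaged starvation differences, and for the 5 largest averaged genotype and 5 largest interaction differences. From other lists up to 3 called genes each were named. The values of 1 called gene of these lists are not reported here. Uroc1, Hibadh, the fourth called gene of the aromatic and regulator lists, Nr3c1 and Klf15 were named after their values were seen. Hsd17b10, Ethe1, Klf15 and the transporters were likewise shown by array after their values were seen. Wide and narrow arrays lie above and below the median SD of the 12. Whether title numbers pair mice is not stated; same-numbered starved and fed arrays had correlations of 0.45, 0.53 and -0.17 of their deviations from group means, so they were not taken as pairs. WT starved replicate 3 has an irregular title code, shares its number with WT starved S3 and was kept as labelled. Both arrays were counted as separate mice, and the shared number was not followed up. Alternatives were other scalings, filters, line choices, array weights, blocks and leaving out each array.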

Additional observations from a re-analysis of the deposited data

How the results depend on the processing

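In brackets stands the number of all genes called in the same fit. The 8 calls for averaged starvation (1070) became 25 with array weights (9499; weights 0.206 to 6.14), 14 with the array SD as a covariate (2394) and 3 on the 6 narrow arrays alone (599). Leaving out 1 array gave 5 to 8, with 5 without KO fed F5 (625) or F8 (779). The spread block gave 11 (2235) and the 6 wide arrays 6 (1241). The 0 calls of KO starvation (212) became 3 with cyclic loess (272), 4 with only the 2 groups in the fit (357), 23 with array weights (7639), and 5 with the spread block (881) or the SD covariate (880). They became 1 with median centring (206), with the mean of a symbol's lines (212), with genes above the 25th percentile (227) or above the median (220), and with the title number as a replicate block (224). Without 1 array there were 0 to 3: 3 without WT starved 3 (344), 2 without WT fed F1 (229) or F2 (192). The 0 calls of WT starvation (292) became 3 with cyclic loess (416), 1 with median centring (303), 15 with array weights (5600), 6 with the spread block (1225) and 7 with the SD covariate (1133). Without 1 array there were 0 to 3: 3 without WT fed F1 (286) or WT starved 3 (659), 1 without WT fed F2 (107) or F4 (78). Array weights also gave 5 calls for KO minus WT in fed livers (1267) and 2 for averaged genotype, Cth and Tat (170). The replicate block changed no other count (its consensus correlation was 0.02). Mat1a and Oat passed in all 12 fits without 1 array and all 13 other settings, Haao in 12 and 12, Hibch and Ahcy in 12 and 11, Aass in 10 and 12, Bhmt in 3 and 11, and Sdsl in 2 and 8. Sds and Tat, which did not pass in the main fit, each passed in 1 of the 12 fits without 1 array. On narrow arrays alone the interaction of Prodh was -0.40 and the averaged genotype difference of Aass 0.0887, each of the opposite sign. The fits on wide or on narrow arrays and the SD covariate were added after the data were seen. The cause of these shifts was not tested.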

Other observations

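Of 16 amino acid transporters of hepatocytes 0 passed the test for averaged starvation in limma, against 5.16% of all genes. At an unadjusted p under 0.05 there were 7 (43.8%), 6 upward and 1 downward, against 17.7% of all genes. Differences above 0 numbered 14 (87.5%), against 45% of all genes, with a median of 0.35. Slc25a13, the mitochondrial aspartate-glutamate carrier, had 10.82, 11.35 and 11.46 in KO starved and 11.54, 11.41 and 10.73 in WT starved livers. Slc25a13 had 10.20, 10.84 and 10.26 in KO fed and 10.92, 10.003 and 10.47 in WT fed livers, and the difference was 0.77 ± 0.20 (adjusted p 0.051). Slc7a2, a carrier of cationic amino acids, had 11.53, 11.87 and 12.10 in KO starved and 12.56, 12.53 and 11.15 in WT starved livers. Slc7a2 had 10.09, 11.40 and 9.96 in KO fed and 11.50, 9.60 and 11.12 in WT fed livers, and the difference was 1.34 ± 0.38 (adjusted p 0.068). For both genes the narrow array was the lowest in each starved group and the wide array the highest in each fed group.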
